A study of Mus musculus with 96 samples.

Results

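The early response of mouse dendritic cells to Cpg was followed on 6 arrays, 2 each at 0.5, 1 and 2 h, and compared with the arrays of Pam, Lps and Grd at the same hours (6 each) and, in the main, with all 8 arrays of unstimulated cells, called Control. The arrays were chosen by their titles alone, the 6 Cpg and 8 Control arrays being 14 of the 96 of the series, and are described across 10543 genes. The cells were primary bone marrow dendritic cells (BMDC), which are grown from bone marrow in culture. They received 1 of 5 ligands of Toll-like receptors (TLRs), labelled Lps, Pic, Pam, Cpg and Grd, at 9 times. As the study is known, since the labels do not spell them out, Cpg is taken here as CpG oligonucleotides (a TLR9 ligand), Pam as a lipopeptide (TLR2), Lps as lipopolysaccharide (TLR4) and Grd as gardiquimod (TLR7). Control cells had 1 array each at 0, 1, 2, 4, 6, 8, 12 and 24 h. The strain, age and sex of the mice, the doses, and whether a separate culture stood behind each array are not given in the sources used here. P-values thus cover the spread between arrays of the same ligand and hour, part or all of which may be technical. They also cover the spread of the Control arrays across hours, since these were treated as 1 group.

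TLR9 sits in endosomes and binds DNA with unmethylated CpG motifs, which are common in bacteria and rare in mammals. Through the adaptor MyD88 it activates NF-kB and the MAP kinases, which switch on waves of genes. The first wave holds transcription factors such as Egr1 and Fos, and it is followed by cytokines, chemokines, feedback inhibitors and the surface molecules with which a mature dendritic cell stimulates T cells. In plasmacytoid dendritic cells TLR9 is also known for driving type I interferon.

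Values are microarray intensities on a linear scale with a floor of 20, below which nothing was reported. Differences are given as log2(value + 1) of Cpg minus Control ± standard error from 1 limma fit over all 96 arrays, with Benjamini-Hochberg adjusted p-values. A gene is called when its adjusted p is under 0.05 and its log2 difference is at least 1 in size. The early window is the mean of the 3 hourly means. Where every array of a group lay at the floor, the change is also given as at least so many fold, from the geometric mean of the other group against 20. In bulk samples, fewer cells of a type and less RNA per cell cannot be told apart.

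Several features of the arrays bear on what follows. Dendritic cell markers were measured for 11 of 12 genes, and their summed intensity spanned 26744 to 28922 on Cpg arrays and 26666 to 29285 on Control arrays. Of these markers only Zbtb46 was called in the window, higher by 1.15. It spanned 41.6 to 180.3 on Cpg arrays and 29.6 to 45 on Control arrays. Macrophage markers (8 of 10 measured) summed to between 10072 and 15141 on Cpg arrays and between 12530 and 18639 on Control arrays, and neutrophil markers (9 of 10) to between 8628 and 10554 and between 7791 and 10280.1 in the same order. Plasmacytoid dendritic cell markers (4 of 7) summed to between 131 and 151 on Cpg arrays and between 125 and 164 on Control arrays, where 4 genes at the floor would give 80. The single measured markers of B cells (Cd79b) and mast cells or basophils (Mcpt8) lay at 20 on all 14 arrays, that of erythroid or stromal cells at 24.4 to 30.2 on Cpg arrays and 20.5 to 29 on Control arrays, and that of T and NK cells at 20 to 21.1 on Cpg arrays and 20 on Control arrays. Their part in the results was not tested.

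The Control arrays also differed from hour to hour. Plet1, a surface glycoprotein gene, had 4444, 4249, 3784, 3226, 141, 1672, 735 and 77.1 at 0, 1, 2, 4, 6, 8, 12 and 24 h of Control. Its level was high on the arrays of 0 to 4 h, lower at 8 h and lowest on those of 6, 12 and 24 h. Counts are therefore given against all 8 Control arrays and against the Control arrays of 0, 1 and 2 h alone. All arrays lay on 1 plate. The Cpg arrays of 0.5, 1 and 2 h lay in plate columns 10, 11 and 12, each with Control arrays of other hours (0 and 1 h in column 10, 2, 4 and 8 h in column 11, and 6, 12 and 24 h in column 12), so that values within a column could be had. The Control arrays of 6, 12 and 24 h were thus those of column 12, so their hour and plate column cannot be told apart. The first 1 h array differed from the second, as described below, and results were also computed without it.

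Against all 8 Control arrays, 195 genes were called higher and 31 lower in the early window of Cpg, which is 1.85% and 0.294% of the genes tested (2.14% in either direction). The Control arrays of 0, 1 and 2 h alone gave 150 higher and 16 lower, of which 135 and 12 were also called against all 8. Without the first 1 h array, 196 were higher and 43 lower, and 187 and 30 of these were shared with the calls on all arrays. The median log2 difference of all genes was -0.04. Of the 195 genes, 1 had its highest hourly mean at 0.5 h, 78 at 1 h and 116 at 2 h. Of the 31 lower genes, 6 had their lowest mean at 1 h and 25 at 2 h. In 106 genes (1.01% of those tested) every Cpg array lay above every Control array, and in 253 (2.4%) every Cpg array lay below.

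The number of called genes was larger at each later hour. At 0.5 h, 61 genes were called higher (0.579%) and 11 lower (0.104%), or 0.683% in either direction. At 1 h there were 244 higher (2.31%) and 43 lower (0.408%), or 2.72%. At 2 h there were 388 higher (3.68%) and 338 lower (3.21%), or 6.89%. Against the Control arrays of 0, 1 and 2 h alone, the counts were 26 higher and 0 lower at 0.5 h, 233 and 60 at 1 h, and 340 and 240 at 2 h. With the Control arrays of the same plate column they were 30 and 0 at 0.5 h, 231 and 37 at 1 h, and 514 and 582 at 2 h, the last against the Control arrays of 6, 12 and 24 h. Centring each array on its median turned the 2 h counts into 462 higher and 242 lower, and quantile normalization into 438 and 244, so that 65.6% and 64.2% of calls were higher in place of 53.4%.

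**Figure D1:**
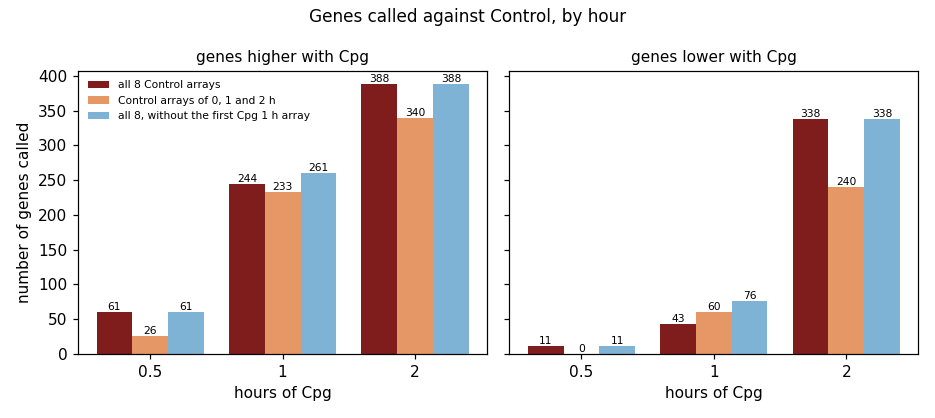
Number of genes called higher (left panel) and lower (right panel) with Cpg at 0.5, 1 and 2 h against Control. Bars stand for all 8 Control arrays, for the Control arrays of 0, 1 and 2 h alone, and for all 8 without the first Cpg 1 h array; the 0.5 h bars for lower genes are 11, 0 and 11.

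Chemokine genes held some of the strongest responses. Of 18 measured chemokines, 8 were called higher (beside 1.85% of all genes) and 0 lower in the window. Their median log2 difference was 0.65 beside -0.04 for all genes. Cxcl1, which attracts neutrophils, had 202 and 182.5 at 0.5 h, 3066 and 3023 at 1 h and 2267 and 2327 at 2 h of Cpg, and 20 on all 8 Control arrays. It was on the floor without stimulation and well above it on every Cpg array. It was at least 9.61-fold higher at 0.5 h, at least 152-fold higher at 1 h and at least 115-fold higher at 2 h, and its window difference of 5.72 ± 0.10 (adjusted p = 1.4e-44) ranked first of all named genes.

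Cxcl2, another neutrophil attractant, was already far up at 0.5 h. It had 2275 and 2923 at 0.5 h, 6658 and 6587 at 1 h and 6766 and 6522 at 2 h of Cpg, with 54.4 at the lowest, 104 at the median and 562 at the highest on the Control arrays, and the groups did not overlap. Its log2 difference was 4.26 ± 0.38 at 0.5 h and 5.63 ± 0.38 at 2 h, and 3.08 and 4.44 against the Control arrays of 0, 1 and 2 h. Ccl3 and Ccl4, attractants of monocytes and T cells, went on rising through 2 h. Ccl4 had 330.0 and 420.3 at 0.5 h, 2112 and 1670.5 at 1 h and 3798 and 3839 at 2 h of Cpg, against 29.4 at the lowest, 57 at the median and 194 at the highest on the Control arrays, and every Cpg array lay above every Control array. The window differences were 4.31 ± 0.21 (adjusted p = 4.4e-24) for Ccl4 and 4.04 ± 0.25 (adjusted p = 9.8e-20) for Ccl3. Both were smaller against the Control arrays of 0, 1 and 2 h, at 3.19 and 2.81, and their Control levels were lower from 4 h on.

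Cxcl10, an attractant of activated T cells, peaked at 1 h. It had 74.9 and 76.4 at 0.5 h, 849 and 590.2 at 1 h and 339.9 and 345 at 2 h of Cpg, and 20 at the lowest, 48.4 at the median and 64.6 at the highest on the Control arrays, with differences of 4.08 ± 0.23 at 1 h and 3.03 ± 0.23 at 2 h. Its 0.5 h arrays were just above the highest Control array, and the difference of 0.87 was not called. The monocyte attractant Ccl12 was low throughout, with 20 and 23.8 at 0.5 h, 88.1 and 43.1 at 1 h and 87.2 and 98.8 at 2 h of Cpg and a lowest value and median of 20 and a highest value of 24.8 on the Control arrays. Its difference at 2 h was 2.12 ± 0.14 (adjusted p = 8.7e-19).

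Among inflammatory cytokines and mediators, 13 of 21 measured genes were called higher (beside 1.85% of all genes) and 0 lower. Their median was 1.45. The Control arrays of 0, 1 and 2 h gave 10 of 21 higher, beside 1.42% of all genes. Tnf, the archetypal early inflammatory cytokine, had 1159.7 and 1200.3 at 0.5 h, 5322.5 and 5717 at 1 h and 4512 and 4326 at 2 h of Cpg, with 33.2 at the lowest, 61.8 at the median and 158 at the highest on the Control arrays. Even the lower 0.5 h array lay far above the highest Control array. The log2 difference was 4.18 ± 0.25 (adjusted p = 2.8e-19) at 0.5 h, 6.40 ± 0.25 at 1 h and 6.08 ± 0.25 at 2 h, and 3.39, 5.61 and 5.29 against the Control arrays of 0, 1 and 2 h. Il1b, the fever-inducing interleukin, had 2520.0 and 2482.5 at 0.5 h, 8233 and 7956 at 1 h and 8883 and 8739 at 2 h of Cpg, against 388 at the lowest, 724 at the median and 1256 at the highest on the Control arrays. It was thus present before stimulation and still rose by 3.04 ± 0.13 over the window.

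Most of the rise of Il6 came after 0.5 h. This cytokine, which drives the acute phase response, had 82.4 and 82 at 0.5 h, 3049 and 3294 at 1 h and 4095 and 4195 at 2 h of Cpg, with 20 at the lowest, 22.7 at the median and 62.4 at the highest on the Control arrays. All 6 Cpg arrays lay above all Control arrays, by a narrow margin at 0.5 h. Its difference was 1.58 ± 0.27 (adjusted p = 4.5e-05) at 0.5 h and 7.22 ± 0.27 at 2 h.

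The subunits of IL-12 and IL-23 appeared between 0.5 and 1 h. Il12b, which encodes the p40 chain that both share, had 34.4 and 27 at 0.5 h, 2732 and 2764 at 1 h and 4422.5 and 4143 at 2 h of Cpg, and 21.9 at the lowest, 57 at the median and 154 at the highest on the Control arrays. At 0.5 h it lay inside the Control range, and at 1 h it was far above it. The difference was -0.73 ± 0.34 (adjusted p = 0.14) at 0.5 h, 5.72 ± 0.34 (adjusted p = 9.3e-21) at 1 h and 6.36 ± 0.34 at 2 h, and at 2 h it was 7.11 against the Control arrays of 0, 1 and 2 h. Il23a, the p19 chain of IL-23, had 20 on both arrays at 0.5 h, 128 and 212 at 1 h and 295 and 241 at 2 h of Cpg, with 20 on all 8 Control arrays, and was at least 13.3-fold higher at 2 h (adjusted p = 7.6e-30). Il12a, the p35 chain of IL-12, was at least 12.3-fold higher at 2 h (adjusted p = 6.4e-29), a gene named here after its values were seen. Il10, an anti-inflammatory cytokine, lay at 20 on all 14 arrays.

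**Figure D2:**
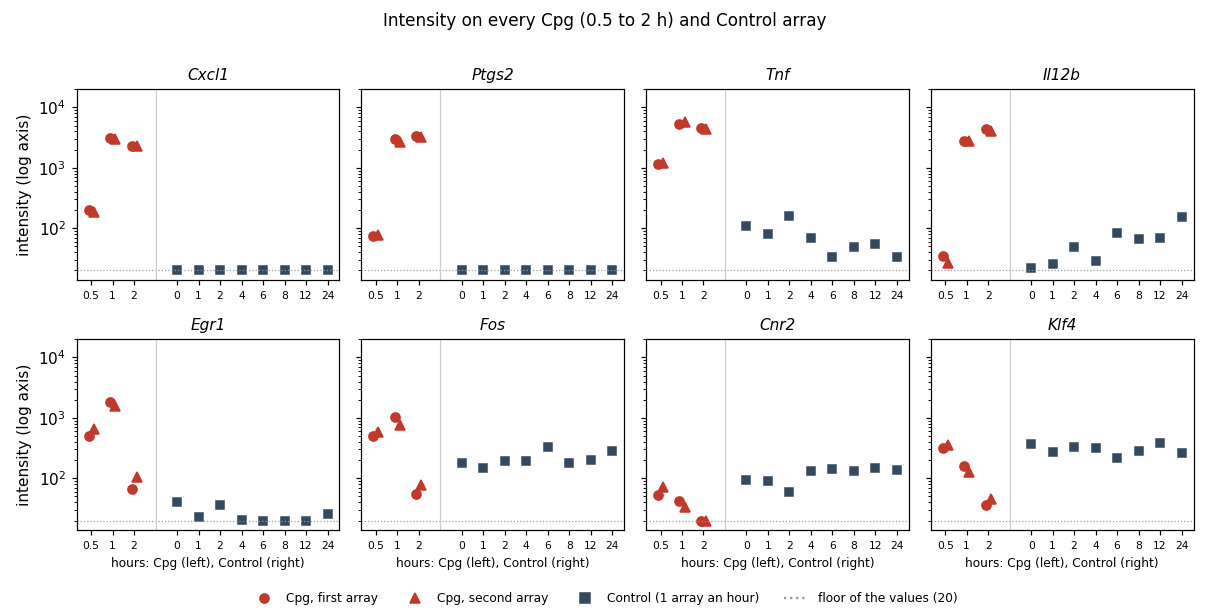
Intensity on every array (log axis) for 8 genes: Cpg arrays by hour on the left of each panel, circles for the first array and triangles for the second, and Control arrays by hour on the right as squares. Cxcl1 and Ptgs2 lie on the floor of 20 in all Control arrays, Egr1 and Fos peak at 1 h, and Cnr2 and Klf4 are lowest at 2 h.

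Tnfsf9, the ligand of the T cell costimulator 4-1BB, was among the sharpest risers at 1 h. It had 66 and 64.7 at 0.5 h, 4963 and 4228 at 1 h and 1401 and 1662 at 2 h of Cpg, against 23.7 at the lowest, 28.6 at the median and 36.7 at the highest on the Control arrays. The 1 h arrays lay well above those of 2 h, with differences of 7.25 ± 0.23 and 5.66 ± 0.23. It went back toward Control at 2 h without reaching it.

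Ptgs2, the inducible cyclooxygenase that starts prostaglandin synthesis, had 73.3 and 77.4 at 0.5 h, 3012 and 2708 at 1 h and 3399 and 3199 at 2 h of Cpg, and 20 on all 8 Control arrays. It was at least 3.77-fold higher at 0.5 h and at least 165-fold higher at 2 h (adjusted p = 5.1e-37). Of 13 measured genes of lipid mediators, 2 were called higher in the window (Ptgs2 and Ch25h) and 1 lower (Ptger2). This stands beside 1.85% and 0.294% of all genes, and the median of the list was 0.06. The Control arrays of 0, 1 and 2 h gave the same number higher and 0 lower. Ch25h makes 25-hydroxycholesterol, and it had 62.1 and 48.7 at 0.5 h, 263 and 555 at 1 h and 1078 and 1125 at 2 h of Cpg, with 28.4 at the lowest, 39 at the median and 54.1 at the highest on the Control arrays. The difference was 4.80 ± 0.17 at 2 h, and the first 1 h array lay below the second. The receptors for prostaglandin E2 moved apart, with Ptger2 lower at 2 h and Ptger4 higher at 1 h. Ptger2 had 78 and 107 at 0.5 h, 76.6 and 66.7 at 1 h and 20 on both arrays at 2 h of Cpg, and 88.9 at the lowest, 124 at the median and 279 at the highest on the Control arrays, and was at least 6.99-fold lower at 2 h (adjusted p = 6.2e-17). Ptger4 had a difference of 1.20 ± 0.10 (adjusted p = 5.7e-15) at 1 h, which was 0.98 and not called against the Control arrays of 0, 1 and 2 h, and -0.02 at 2 h, not called.

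The promoters of the 4 named genes with the largest window differences (Cxcl1, Tnf, Ptgs2 and Il6) show what the kappaB consensus, the sequence that NF-kB binds, looks like where it occurs. RefSeq promoter sequences (GRCm38.p6) were searched over the 200 bases before the gene start, on both strands. Matches to the consensus are in capitals, and the sequences read 5′ to 3′ on the strand of the gene. Cxcl1 lies on the plus strand at chr5:90891045-90891244, Tnf on the minus strand at chr17:35202008-35202207, Ptgs2 on the plus strand at chr1:150099831-150100030 and Il6 on the plus strand at chr5:30012914-30013113.
Cxcl1: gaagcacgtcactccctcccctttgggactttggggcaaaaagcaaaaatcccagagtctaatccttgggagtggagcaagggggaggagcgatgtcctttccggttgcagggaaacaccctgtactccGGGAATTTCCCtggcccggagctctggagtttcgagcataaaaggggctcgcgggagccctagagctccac
Tnf: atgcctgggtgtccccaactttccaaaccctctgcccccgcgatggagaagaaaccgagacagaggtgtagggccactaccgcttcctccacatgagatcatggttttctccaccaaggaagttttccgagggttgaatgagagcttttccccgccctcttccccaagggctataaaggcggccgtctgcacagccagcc
Ptgs2: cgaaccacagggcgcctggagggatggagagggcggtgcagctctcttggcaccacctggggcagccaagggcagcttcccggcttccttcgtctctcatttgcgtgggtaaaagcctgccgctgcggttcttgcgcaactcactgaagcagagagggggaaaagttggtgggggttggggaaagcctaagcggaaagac
Il6: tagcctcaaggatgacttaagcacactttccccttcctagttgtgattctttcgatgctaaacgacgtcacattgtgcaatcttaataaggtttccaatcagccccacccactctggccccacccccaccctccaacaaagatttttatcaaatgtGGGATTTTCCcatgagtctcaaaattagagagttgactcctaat

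Cxcl1 held 2 overlapping matches within 1 stretch, which began 71 and 70 bases before the gene start. Il6 held 1 match, beginning 44 bases before the start. In Tnf and Ptgs2 these letters were not in this window. Of the 12 named genes with the largest rises, 7 had a promoter in the table, and 3 of these (Cxcl1, Il6 and Cxcl2) held a match. Among genes called higher in the window, 22 of 116 promoters (19%) held the consensus, beside 461 of 6338 (7.27%) of all tested genes and 0 of 21 of those called lower. The AP-1 motif TGANTCA stood in 13.8% of promoters of genes called higher and 3.82% of tested genes, the CRE core TGACGT in 13.8% and 9.75%, the TATA motif TATAAA in 13.8% and 5.02%, and the CArG box in 0% and 0.884%. All motifs were searched on both strands and may overlap. A match is a description of the letters and not a bound site.

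Genes of the NF-kB pathway were called higher in 7 of 18 measured members in the window and lower in 0, with a median of 0.73. The share of all genes called higher was 1.85%. At 2 h, 11 members were higher and 1 lower, beside 3.68% and 3.21% of all genes. Nfkbiz, a nuclear inhibitor family member needed for Il6 and other secondary genes, had 469 and 601 at 0.5 h, 6057 and 5759.6 at 1 h and 4071 and 4609 at 2 h of Cpg, with 47.9 at the lowest, 76.5 at the median and 99 at the highest on the Control arrays. Its difference was 2.88 ± 0.20 at 0.5 h, 6.35 ± 0.20 (adjusted p = 5.8e-32) at 1 h and 5.90 ± 0.20 at 2 h. Nfkbia, the inhibitor that holds NF-kB in the cytoplasm, had 3318 and 3252.5 at 0.5 h, 8276 and 7866 at 1 h and 5911 and 6373 at 2 h of Cpg, and 921.5 at the lowest, 1527 at the median and 2095 at the highest on the Control arrays. Its rise at 0.5 h was 1.21 ± 0.15 against all Control arrays and 0.81, not called, against those of 0, 1 and 2 h.

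Tnfaip3, which encodes the ubiquitin-editing inhibitor A20, had 207 and 168 at 0.5 h, 1658 and 1383 at 1 h and 927.5 and 851 at 2 h of Cpg, with 51.2 at the lowest, 90 at the median and 129 at the highest on the Control arrays. It was highest at 1 h, with a difference of 4.10 ± 0.20 (adjusted p = 5.6e-24). Rel, an NF-kB subunit, rose by 2.07 ± 0.08 at 1 h and 2.42 ± 0.08 at 2 h. Map3k14, the kinase of the noncanonical NF-kB route, was the member that fell. It had 199 and 185 at 0.5 h, 181 and 164 at 1 h and 32 and 51.3 at 2 h of Cpg, and 158 at the lowest, 174 at the median and 197 at the highest on the Control arrays, and its difference at 2 h was -2.08 ± 0.11 (adjusted p = 9.8e-23). Both 2 h arrays lay below all other arrays of the comparison.

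Feedback regulators of kinase and cytokine signalling (MAP kinase phosphatases, SOCS proteins and related genes) were called higher in 9 of 18 measured members and lower in 0. The share of all genes called higher was 1.85%, and the median of the list was 1.00. The Control arrays of 0, 1 and 2 h gave 5 of 18 higher, beside 1.42% of all genes, and a median of 0.36. Socs3, which restrains cytokine receptors, had 396 and 422 at 0.5 h, 1862 and 1552 at 1 h and 1092 and 951 at 2 h of Cpg, against 28.2 at the lowest, 49.8 at the median and 146 at the highest on the Control arrays, with a window difference of 4.00 ± 0.20 (adjusted p = 5.2e-24), or 3.08 against the Control arrays of 0, 1 and 2 h. Dusp1, a phosphatase of p38 and JNK, had 1670.0 and 1730.5 at 0.5 h, 3815 and 3625 at 1 h and 916 and 1034 at 2 h of Cpg, and 255 at the lowest, 403 at the median and 702.5 at the highest on the Control arrays, and was highest at 1 h. Its difference was 2.01 ± 0.15 at 0.5 h, 3.14 ± 0.15 at 1 h and 1.21 ± 0.15 at 2 h, and the last was 0.74, not called, against the Control arrays of 0, 1 and 2 h.

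Dusp2 and Dusp14, phosphatases of the same family, were at or near the floor at 0.5 h and high at 1 h. Dusp2 had 20 on both arrays at 0.5 h, 399 and 458 at 1 h and 116 and 161 at 2 h of Cpg, with 20 on all 8 Control arrays, and was at least 21.4-fold higher at 1 h (adjusted p = 4.4e-22). Dusp14 had 26.1 and 20.8 at 0.5 h, 324 and 314 at 1 h and 448 and 433.5 at 2 h of Cpg, with 20 at the lowest, 20.2 at the median and 24.4 at the highest on the Control arrays, and a difference of 4.34 ± 0.14 (adjusted p = 2.6e-32) at 2 h. Dusp6, a phosphatase of ERK, ended at the floor instead. It had 105 and 103 at 0.5 h, 20 and 25.4 at 1 h and 20 on both arrays at 2 h of Cpg, and 24.1 at the lowest, 41.3 at the median and 109.8 at the highest on the Control arrays. Its difference was 1.17 ± 0.25 (adjusted p = 0.0015) at 0.5 h and -1.15 ± 0.25 (adjusted p = 1e-04) at 2 h, but both 0.5 h arrays lay inside the Control range, and against the Control arrays of 0, 1 and 2 h the 0.5 h difference was 0.65 and not called.

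Immediate-early transcription factors were called higher in 6 of 22 measured members at 0.5 h, 11 at 1 h and 5 at 2 h, and lower in 0, 1 and 1. The shares of all genes were 0.579%, 2.31% and 3.68% higher and 0.104%, 0.408% and 3.21% lower. Against the Control arrays of 0, 1 and 2 h the member counts were 3, 9 and 5 higher and 0, 1 and 3 lower. The shares of all genes were then 0.247%, 2.21% and 3.22% higher and 0%, 0.569% and 2.28% lower. The window median was 0.59. Egr1, the classic immediate-early zinc finger factor, had 503 and 649 at 0.5 h, 1841 and 1545 at 1 h and 66.5 and 106 at 2 h of Cpg, with 20 at the lowest, 21.8 at the median and 41.2 at the highest on the Control arrays. It had the largest difference of any named gene at 0.5 h, 4.47 ± 0.22 (adjusted p = 5.9e-23), reached 6.03 ± 0.22 at 1 h and stood at 1.72 ± 0.22 at 2 h. Fos, a subunit of AP-1, had 509 and 577 at 0.5 h, 1051 and 753 at 1 h and 55.7 and 77.1 at 2 h of Cpg, and 147 at the lowest, 191 at the median and 333 at the highest on the Control arrays. The arrays of 0.5 and 1 h lay above all Control arrays and those of 2 h below all of them. Its difference was 1.40 ± 0.20 (adjusted p = 8.7e-07), 2.11 ± 0.20 (adjusted p = 4.6e-13) and -1.63 ± 0.20 (adjusted p = 5.5e-10) at the 3 hours.

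Nr4a1, an orphan nuclear receptor, had 61 and 61.8 at 0.5 h, 669.7 and 351.5 at 1 h and 94.7 and 139 at 2 h of Cpg, with 41.9 at the lowest, 43.5 at the median and 56.2 at the highest on the Control arrays, and rose by 3.37 ± 0.15 at 1 h. Maff, a small Maf factor, stayed up at 2 h with a difference of 3.64 ± 0.20. Atf3, often counted among TLR-induced repressors, was already high in Control, with 1453.5 and 1260.1 at 0.5 h, 1813.5 and 1709.7 at 1 h and 1206 and 1288 at 2 h of Cpg and 724 at the lowest, 1164 at the median and 1344 at the highest on the Control arrays. Its difference of 0.39 over the window was not called.

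**Figure D3:**
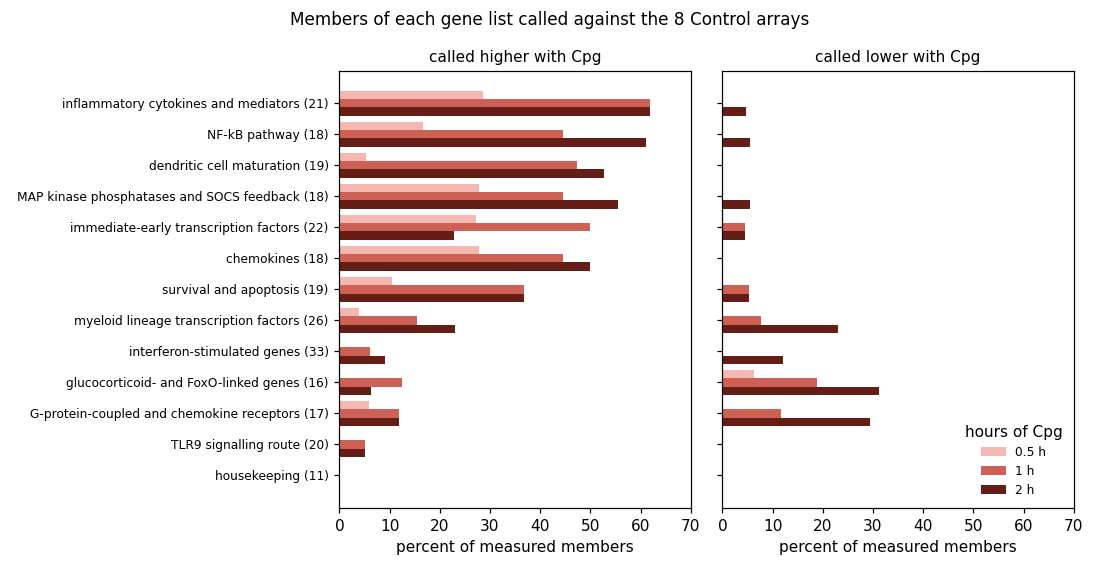
Percent of the measured members of each gene list (number measured in parentheses) called higher (left panel) and lower (right panel) at 0.5, 1 and 2 h of Cpg against the 8 Control arrays. Among the cytokines 13 of 21 were higher at both 1 and 2 h, immediate-early factors were highest at 1 h with 11 of 22, and no housekeeping gene was called. Of all genes, 2.31% were called higher at 1 h and 3.68% at 2 h.

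Calls among maturation genes came mostly after 0.5 h. Of 19 measured, 1 was called higher at 0.5 h, 9 at 1 h and 10 at 2 h, with 0 lower and a window median of 0.70. Among all genes, 0.579%, 2.31% and 3.68% were called higher at these hours. Cd40, through which T helper cells license dendritic cells, had 171 and 146 at 0.5 h, 1485 and 1412 at 1 h and 2239 and 2115 at 2 h of Cpg, with 56.7 at the lowest, 105 at the median and 170.2 at the highest on the Control arrays. At 0.5 h its arrays lay at the top of the Control range, and the 2 h difference was 4.46 ± 0.17 (adjusted p = 2.1e-28). Cd70, the ligand of CD27, had 20 on both arrays at 0.5 h, 99.1 and 96 at 1 h and 334 and 315 at 2 h of Cpg, with 20 on all 8 Control arrays, and was at least 16.2-fold higher at 2 h (adjusted p = 4.6e-40). Cd80, a ligand of CD28, had 234 and 219 at 0.5 h, 397 and 554 at 1 h and 613 and 655 at 2 h of Cpg, with 48.7 at the lowest, 107 at the median and 193 at the highest on the Control arrays, and a difference of 2.60 ± 0.22 at 2 h, or 1.93 against the Control arrays of 0, 1 and 2 h.

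Icam1, an adhesion molecule, had 865 and 917 at 0.5 h, 3083 and 3255 at 1 h and 3545 and 3417.5 at 2 h of Cpg, and 537 at the lowest, 882 at the median and 1040.0 at the highest on the Control arrays, and rose by 1.95 ± 0.11 at 1 h. Tnfsf4, the OX40 ligand, rose by 2.43 ± 0.11 at 2 h. Cd83 was high on all arrays and peaked at 1 h, with 1374 and 1343 at 0.5 h, 3585 and 2862 at 1 h and 1999 and 2132 at 2 h of Cpg and 1138 at the lowest, 1229 at the median and 1599.9 at the highest on the Control arrays. Its difference was called at 1 h, 1.34 ± 0.09 (adjusted p = 1.6e-17), but not at 2 h, 0.71. Marcksl1 rose by 1.38 ± 0.07 at 1 h and 1.31 ± 0.07 at 2 h.

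Interferon-stimulated genes were called in both directions at 2 h. Of 33 measured, 0 were called at 0.5 h, 2 higher (6.06%, beside 2.31% of all genes) and 0 lower at 1 h, and 3 higher (9.09%, beside 3.68%) and 4 lower (12.1%, beside 3.21%) at 2 h, with a median of -0.24 at 2 h beside -0.07 for all genes. Ifnb1, which encodes interferon-beta, had 20 on both arrays at 0.5 h, 22.5 and 42.1 at 1 h and 168 and 178 at 2 h of Cpg, and 20 on all 8 Control arrays. It was at least 8.65-fold higher at 2 h (adjusted p = 1.2e-26), and the 1 h arrays were near the floor. Irf1, a transcription factor of the interferon system, rose by 2.17 ± 0.12 at 1 h and 1.53 ± 0.12 at 2 h. The members called lower at 2 h, named after their values were seen, were Ifit2, Ifit3, Oas2 and Iigp1, all known as interferon-induced genes, with differences of -1.11, -1.19, -1.14 and -1.26.

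Survival genes were called higher in 6 of 19 measured members in the window (beside 1.85% of all genes) and lower in 0. Their median was 0.40. Phlda1, a gene linked to apoptosis control, had 653 and 743 at 0.5 h, 1988 and 3054 at 1 h and 871 and 1019.5 at 2 h of Cpg, against 28.1 at the lowest, 66.3 at the median and 223 at the highest on the Control arrays. Its window difference was 3.96 ± 0.24 (adjusted p = 3.7e-20), and 2.77 against the Control arrays of 0, 1 and 2 h. Cflar, the caspase-8 inhibitor c-FLIP, had 349 and 310.2 at 0.5 h, 899.6 and 922 at 1 h and 1822 and 1790.1 at 2 h of Cpg, with 84 at the lowest, 182 at the median and 349 at the highest on the Control arrays, and rose by 3.38 ± 0.23 at 2 h, or 2.68 against the Control arrays of 0, 1 and 2 h. Ier3 was up from 0.5 h, by 1.95 ± 0.12.

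Regulators of mRNA decay held 2 higher and 0 lower genes of 11 measured in the window, with a median of -0.01. The share of all genes called higher was 1.85%. Zc3h12a, the endonuclease Regnase-1 that cuts cytokine transcripts, had 119 and 129 at 0.5 h, 413 and 330.0 at 1 h and 669.8 and 637 at 2 h of Cpg, and 51.4 at the lowest, 68 at the median and 92.8 at the highest on the Control arrays, and rose by 3.24 ± 0.11 at 2 h. Zfp36l2, which binds AU-rich elements, fell at 2 h. It had 883 and 895 at 0.5 h, 839 and 843 at 1 h and 242 and 295 at 2 h of Cpg, and 827 at the lowest, 1037 at the median and 1185 at the highest on the Control arrays, with a difference of -1.91 ± 0.10 (adjusted p = 1.5e-22). Zfp36 was not analysed here.

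Growth factors, adhesion and pericellular proteolysis genes were called higher in 7 of 17 measured members (beside 1.85% of all genes) and lower in 0. Their median was 0.60. Serpinb2, an inhibitor of plasminogen activators, had 103 and 89.1 at 0.5 h, 1639 and 1783 at 1 h and 2826 and 2719 at 2 h of Cpg, with 21.7 at the lowest, 55.5 at the median and 127 at the highest on the Control arrays, and rose by 5.66 ± 0.27 (adjusted p = 2.6e-24) at 2 h, or 4.97 against the Control arrays of 0, 1 and 2 h. Plat, a plasminogen activator, had 20 on both arrays at 0.5 h, 225 and 116 at 1 h and 146 and 125.5 at 2 h of Cpg, with a lowest value and median of 20 and a highest value of 24.3 on the Control arrays, and rose by 2.92 ± 0.13 at 1 h. Sdc4, a cell surface proteoglycan, rose by 3.59 ± 0.18 at 2 h. F3, tissue factor, was at least 4.28-fold higher at 2 h and differed between the 1 h arrays.

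Genes that fell did so mainly at 2 h. Of 17 measured G-protein-coupled and chemokine receptors, 2 were called lower at 1 h and 5 at 2 h (Cnr2, Ccr2, P2ry6, C3ar1 and Gpr35), and 2 higher at each of these hours. Among all genes, 0.408% and 3.21% were called lower at 1 and 2 h, and 2.31% and 3.68% higher. Cnr2, cannabinoid receptor 2, had 53.8 and 72.5 at 0.5 h, 42.7 and 33.1 at 1 h and 20 on both arrays at 2 h of Cpg, and 59.4 at the lowest, 134 at the median and 147 at the highest on the Control arrays. Both 2 h arrays were at the floor, at least 5.63-fold lower than Control (adjusted p = 2.9e-16). Its window difference was -1.61 ± 0.13, the largest fall of a named gene, and -1.12 against the Control arrays of 0, 1 and 2 h. P2ry6, a receptor for UDP, had 566 and 668 at 0.5 h, 467 and 428 at 1 h and 143 and 164 at 2 h of Cpg, and 516 at the lowest, 583 at the median and 830.0 at the highest on the Control arrays, and had a difference of -1.97 ± 0.11 at 2 h. Gpr84, a receptor for medium-chain fatty acids, was called higher in the window against all 8 Control arrays but not against those of 0, 1 and 2 h, where its difference was 0.94.

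Of 26 measured myeloid transcription factors, 6 were called higher and 6 lower at 2 h, beside 3.68% and 3.21% of all genes. Hhex, a homeobox factor, had 137 and 130.4 at 0.5 h, 73.4 and 61.6 at 1 h and 27.8 and 22.8 at 2 h of Cpg, with 118 at the lowest, 155 at the median and 236.5 at the highest on the Control arrays. The 3 hours stepped down and the 1 h and 2 h arrays lay below all Control arrays. Its difference at 2 h was -2.63 ± 0.13 (adjusted p = 6.7e-24). Nfe2, a factor known from megakaryocytes and erythroid cells, had 64.2 and 61.2 at 0.5 h, 46 and 33.4 at 1 h and 20 on both arrays at 2 h of Cpg, and 51.4 at the lowest, 117 at the median and 148 at the highest on the Control arrays, and was at least 5.13-fold lower at 2 h (adjusted p = 6.9e-15), a fitted difference of -2.30, or -1.72 against the Control arrays of 0, 1 and 2 h. Irf4 and Ets2 rose, by 1.80 ± 0.20 and 2.46 ± 0.13 at 2 h.

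Klf4, a Krüppel-like factor, had 315 and 353 at 0.5 h, 157 and 126 at 1 h and 35.7 and 44.9 at 2 h of Cpg, and 221 at the lowest, 300.1 at the median and 387 at the highest on the Control arrays. Its level was in the Control range at 0.5 h and below it at 1 and 2 h, with differences of -1.09 ± 0.17 (adjusted p = 1.6e-06) and -2.88 ± 0.17 (adjusted p = 3.4e-20). It belongs to a list of 16 measured genes linked to glucocorticoids and FoxO factors. At 2 h, 1 of these was called higher and 5 lower, beside 3.68% and 3.21% of all genes. Sesn1, a stress-responsive sestrin, had 95.5 and 95.4 at 0.5 h, 111 and 59.8 at 1 h and 27.9 and 29.4 at 2 h of Cpg, and 96.1 at the lowest, 133 at the median and 275 at the highest on the Control arrays, with a difference of -2.31 ± 0.22 at 2 h. Tsc22d3, the glucocorticoid-induced leucine zipper, had a window difference of -1.39 ± 0.14, which was -0.77 and not called against the Control arrays of 0, 1 and 2 h. The lower members at 2 h were Klf4, Sesn1, Tsc22d3 (-1.89), Foxo3 (-1.95) and Klf2 (-1.32). The higher member was Cited2 (1.54), which had risen by 2.32 at 1 h. At 1 h, 2 members of the list were called higher and 3 lower, beside 2.31% and 0.408% of all genes. The Control arrays of 0, 1 and 2 h gave 5 higher and 2 lower at 1 h, beside 2.21% and 0.569%.

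The largest fall at 2 h was that of Ppargc1b, a coactivator of mitochondrial genes. It had 550.5 and 499.5 at 0.5 h, 246 and 448.5 at 1 h and 55.8 and 62.3 at 2 h of Cpg, and 263 at the lowest, 516 at the median and 605 at the highest on the Control arrays, with a difference of -2.96 ± 0.19 (adjusted p = 2.3e-19). Against the Control arrays of its own plate column it differed by -2.69, Klf4 by -2.79, Ptger2 by -3.42 and Hhex by -2.86, all called. At 1 h, the zinc finger genes Zfp53 and Zfp472 had the largest falls. Zfp472 had 97.7 and 87.6 at 0.5 h, 20 on both arrays at 1 h and 30.9 and 35.5 at 2 h of Cpg, with 70.1 at the lowest, 83.4 at the median and 94.8 at the highest on the Control arrays, and was at least 4.07-fold lower at 1 h. Zfp53 had 56.5 and 61.3 at 0.5 h, 29.5 and 21.4 at 1 h and 38.7 and 24.9 at 2 h of Cpg, with 73.3 at the lowest, 115 at the median and 158 at the highest on the Control arrays, and a difference of -2.09 ± 0.17 at 1 h. The aldo-keto reductase Akr1b10 had 97.8 and 85.2 at 0.5 h, 31.2 and 31 at 1 h and 38.2 and 45.1 at 2 h of Cpg, with 85.1 at the lowest, 97.9 at the median and 116 at the highest on the Control arrays, and a difference of -1.65 ± 0.13 at 1 h.

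Other large falls in the window were those of Pdik1l, a kinase gene (-1.41), Ap1s2, a clathrin adaptor subunit (-1.34), Thap11, a zinc finger factor (-1.33), and Tmem140, a membrane protein (-1.32). Of these, Pdik1l kept its call against the Control arrays of 0, 1 and 2 h, at -1.16, while Ap1s2 was -0.48, Thap11 -0.94 and Tmem140 -0.69, none of them called. Nfe2 and Ptger2 were likewise -0.87 and -0.88 in the window and not called. The largest falls at 0.5 h, those of Ap1s2, Cyp27a1 (a sterol hydroxylase), Slc40a1 (the iron exporter ferroportin) and Tsc22d3, ran from -1.26 to -1.02 against all Control arrays and from -0.40 to -0.22 against those of 0, 1 and 2 h, where none was called. Within their plate column they ran from -0.54 to -0.32, none called.

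Of 20 measured members of the signalling route from TLR9 itself, 0 were called in the window, beside 2.14% of all genes, with a median of -0.05 beside -0.04. At 1 and 2 h, 1 (Cd14) was called higher, beside 2.31% and 3.68% of all genes, so that these counts lie near the share over all genes. Against the Control arrays of 0, 1 and 2 h, Cd14 was called in the window too, at 1.29. Tlr9 lay at 20 on all 14 arrays, which gives no more than an upper bound on its level. Cd14, a coreceptor of several TLRs, had 2222 and 2290.1 at 0.5 h, 5732 and 4854 at 1 h and 4981 and 4606 at 2 h of Cpg, and 1475 at the lowest, 1998 at the median and 3758 at the highest on the Control arrays. It rose by 1.33 ± 0.16 at 1 h. Tirap, an adaptor of TLR2 and TLR4, had the largest decrease of the list, -0.66 ± 0.06 (adjusted p = 2.1e-14) over the window, below the threshold of 1. None of 11 measured housekeeping genes was called, and Gapdh differed by -0.13.

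The arrays of 2 h and 0.5 h of Cpg were also compared directly. At 2 h, 326 genes were higher than at 0.5 h (3.09%) and 193 lower (1.83%), or 4.92% in either direction. Median-centred arrays gave 383 and 129, and quantile normalization 358 and 127, so that 74.8% and 73.8% of calls were higher at 2 h in place of 62.8%. The differences between these hours use no Control array. Their standard errors and adjusted p-values come from the fit over all arrays, so the spread of the Control arrays enters them. Il12b had the largest rise, 7.09 ± 0.42 (adjusted p = 5.3e-20), followed by Il6 at 5.64 ± 0.34, Ptgs2 at 5.43 ± 0.23, Serpinb2 at 4.84 ± 0.35 and Tnfsf9 at 4.52 ± 0.29. Cxcl2 differed by 1.36 ± 0.47 and Tnf by 1.90 ± 0.31 between these hours.

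Genes lower at 2 h than at 0.5 h were led by Ppargc1b, -3.13 ± 0.24 (adjusted p = 5.5e-16), Fos, -3.03 ± 0.25 (adjusted p = 7e-15), Klf4, -3.03 ± 0.22, and Egr1, -2.75 ± 0.27. Hhex (-2.36 ± 0.16), Dusp6 (-2.32 ± 0.31), Map3k14 (-2.21 ± 0.14) and Prr15, a proline-rich protein gene (-2.16 ± 0.32), followed. Prr15 was also low on the Control array of 24 h, at 42.3. Phlda1 and Id3, by contrast, differed by 0.44 and 0.05 between the hours and were not called.

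The 2 arrays of 1 h Cpg were less alike than most pairs. Their Pearson correlation across genes was 0.9919, and 93 genes (78 of them named) were at least 2-fold apart, 57 higher and 36 lower on the first array. Among 43 pairs of arrays of the same ligand and hour, only the pair of Pam at 2 h had more such genes, 182. The Cpg pairs of 0.5 and 2 h had 1 and 0. Genes across an array are not independent replicates, so these are descriptions.

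Plet1 and Ccn3, which had the largest differences, also changed among the Control arrays. Plet1 had 357 on the first 1 h array and 3150.4 on the second, against 4087 and 4079 at 0.5 h and 4860 and 4662 at 2 h. Ccn3, a secreted matricellular protein gene, had 20 on the first and 120.0 on the second, between 184 and 241 on the other Cpg arrays, and 20 on the Control arrays of 6, 12 and 24 h. Ccl17, a T cell chemokine named here after its values were seen, had 3475 on the first and 9815 on the second, between 9916 and 11057.5 on the other Cpg arrays, and 1604, 3744 and 776.5 on the Control arrays of 6, 12 and 24 h. The correlation with the Control array of 6 h was 0.9693 for the first array and 0.9608 for the second. With the Control array of 2 h it was 0.9726 and 0.9793, the highest with any Control array for both. The first array had the higher correlation with the Control arrays of 6, 12 and 24 h, and the second with all earlier ones and that of 8 h.

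Genes higher on the first array were led by C5ar1 (the complement C5a receptor), Id3 (an inhibitor of helix-loop-helix factors), Iigp1 (an interferon-induced GTPase), Hfe (an iron regulator) and Cd72. C5ar1 had 174 on the first array and 43.1 on the second, and Hfe 421 and 118. The call of C5ar1 at 1 h, 1.13 ± 0.28, was lost without the first array, at 0.13. Of the 93 genes, the second array lay between the means of 0.5 and 2 h in 40 and the first in 6. The first lay outside the Control range in 18 and the second in 47. The first lay outside all 13 other Cpg and Control arrays in 13 genes and the second in 22. The 93 genes were picked by the gap between these 2 arrays, so the counts are a description.

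Genes of the response were found on both sides of this split. Cxcl1 had 3066 on the first 1 h array and 3023 on the second, Tnf 5323 and 5717, Il6 3049 and 3294, and Il12b 2732 and 2764, so that these 4 were close on the 1 h arrays. Phlda1 had 1988 on the first and 3054 on the second, Ch25h 263 and 555, F3 44.3 and 197, and Ccl12 88.1 and 43.1. Of the 93 genes, 13 were called at 1 h (14%, beside 2.72% of all genes) and 19 in the window (20.4%, beside 2.14%). The 93 were picked on arrays that also enter these calls, so the shares are a description. Without the first array, 261 genes were called higher and 76 lower at 1 h, of which 229 and 37 were among the calls on both arrays. Id3 lost its window call without it, and also against the Control arrays of 0, 1 and 2 h, where its difference was 0.20.

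**Figure D4:**
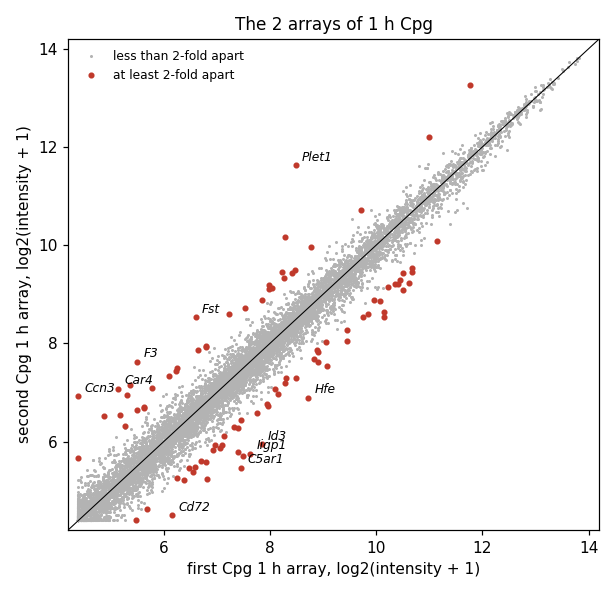
Each point is 1 of 10543 genes, with log2(intensity + 1) on the first Cpg 1 h array along x and on the second along y. The 93 genes at least 2-fold apart are red, the 5 largest differences each way are named, and the line marks equal values.

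The early arrays of Cpg were also compared with those of Pam, Lps and Grd at the same 3 hours, with 6 arrays each. These ligands lay in other plate columns (1 to 3) than Cpg, so place and ligand cannot be told apart, and the doses are not given in the sources used here. Against Pam, 5 genes were called higher with Cpg (0.0474%) and 0 lower. Against Lps there were 6 higher (0.0569%) and 2 lower (0.019%), or 0.0759% in either direction, and against Grd 47 higher (0.446%) and 0 lower. By the adjusted p from limma alone, 364 genes were lower than with Pam and 1717 lower than with Grd, and 1128 and 2498 at an unadjusted p under 0.05. The Pam pair of 2 h was the least alike of all pairs.

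Il12b was called higher with Cpg than with each of these ligands. It had 34.4 and 27 at 0.5 h, 2732 and 2764 at 1 h and 4422.5 and 4143 at 2 h of Cpg, against 80.1 and 20 at 0.5 h, 774 and 691 at 1 h and 1375 and 1177 at 2 h of Pam, 21.4 and 24 at 0.5 h, 193 and 206 at 1 h and 2497 and 2812 at 2 h of Lps and 20.7 and 20 at 0.5 h, 87 and 124 at 1 h and 478 and 515 at 2 h of Grd. At 1 h both Cpg arrays lay above all arrays of the other ligands at that hour. The window difference was 1.09 ± 0.24 (adjusted p = 0.0021) against Pam, 1.63 ± 0.24 (adjusted p = 4.1e-06) against Lps and 2.79 ± 0.24 (adjusted p = 2.4e-13) against Grd. The call against Pam was lost without the second Pam 0.5 h array, at 0.76, and, at the same difference, where the compared groups alone were fitted (adjusted p = 0.17). Without the 1 h arrays the Il12b calls against Pam and Lps were lost, at 0.68 and 0.55. Without the 2 h arrays that against Pam was lost, at 0.76. Hspa1b, an inducible heat shock protein, had 20 on both arrays at 0.5 h, 243.5 and 155 at 1 h and 174.5 and 159 at 2 h of Cpg, against 21.6 and 20 at 0.5 h, 44.5 and 44 at 1 h and 97.4 and 61.1 at 2 h of Pam, 20 on both arrays at 0.5 h, 33.7 and 26.8 at 1 h and 82.4 and 107 at 2 h of Lps and 20 on both arrays at 0.5 h, 22.6 and 24.7 at 1 h and 55.4 and 43.1 at 2 h of Grd. It too was called higher against all 3 ligands, by 1.05 ± 0.09, 1.16 ± 0.09 and 1.58 ± 0.09. The Hspa1b call against Pam was lost without the second Pam 2 h array, at 0.94, without the first Cpg 1 h array, also at 0.94, and with a pseudocount of 16, at 0.91, which also ended the call against Lps, at 0.97. Leaving out the 1 h arrays ended both calls, at 0.52 against Pam and 0.41 against Lps.

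Ifnb1 and Ccl12 were called higher than with Pam and Grd. Ifnb1 had 20 on both arrays at 0.5 h, 22.5 and 42.1 at 1 h and 168 and 178 at 2 h of Cpg, against 20 on all 6 Pam arrays and 20 on both arrays at 0.5 h, 20 on both arrays at 1 h and 24.4 and 23.3 at 2 h of Grd. The Lps arrays had 20 on both arrays at 0.5 h, 49.2 and 41.9 at 1 h and 854.5 and 845 at 2 h of Lps, the highest of the 4 ligands at 2 h, and the difference of -0.94 ± 0.09 between Cpg and Lps fell short of the threshold of 1. Ccl12 differed by 1.21 ± 0.10 against Pam and 1.20 ± 0.10 against Grd. Both genes lay near the floor, and with a pseudocount of 16 their calls against Pam were lost, at 0.93 for Ifnb1 and 0.88 for Ccl12. Leaving out the 2 h arrays also ended these calls, at 0.30 and 0.76.

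Lps exceeded Cpg in Cxcl10 and F3. Cxcl10 had 74.9 and 76.4 at 0.5 h, 849 and 590.2 at 1 h and 339.9 and 345 at 2 h of Cpg, against 73.2 and 64.3 at 0.5 h, 1122 and 1183 at 1 h and 3664 and 3934 at 2 h of Lps. The ligands were close at 0.5 h, and at 2 h both Lps arrays lay far above the Cpg arrays. The window difference was -1.34 ± 0.17 (adjusted p = 7.8e-08), and that of F3 -1.17 ± 0.17 (adjusted p = 2.3e-06). The call of F3 was lost without the first Cpg 1 h array, at -0.81, and where the compared groups alone were fitted (adjusted p = 0.12). Without the 2 h arrays the calls of Cxcl10 and F3 were lost, at -0.28 and -0.58. Dusp14 was higher with Cpg than with Lps, by 1.23 ± 0.10 (adjusted p = 7.4e-14), with 26.1 and 20.8 at 0.5 h, 324 and 314 at 1 h and 448 and 433.5 at 2 h of Cpg and 20 on both arrays at 0.5 h, 28.6 and 30.2 at 1 h and 432 and 395 at 2 h of Lps. The gap lay at 1 h, and the arrays of 2 h were close to each other. Without the 1 h arrays the Dusp14 call was lost, at 0.15. The cytokine Clcf1 differed by 1.01 ± 0.12, just past the threshold, and its call was lost with a pseudocount of 16 (0.82), on median-centred arrays (0.99) and without the first array of Lps at 1 h (0.91), of Lps at 2 h (0.86), of Cpg at 1 h (0.99) or of Cpg at 2 h (0.96). Without any 1 h arrays its difference was 0.22, not called.

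Against Grd, the largest differences after Il12b were in Dusp14 (2.60 ± 0.10), Egr1 (2.34 ± 0.16), Dusp2 (2.21 ± 0.17) and Il23a (2.07 ± 0.10). Egr1 had 503 and 649 at 0.5 h, 1841 and 1545 at 1 h and 66.5 and 106 at 2 h of Cpg, against 65.3 and 80.5 at 0.5 h, 327 and 359 at 1 h and 24.2 and 23.6 at 2 h of Grd. Cpg was above Grd on every array of the same hour. Among the lists, 5 of 21 cytokines, 3 of 18 chemokines and 3 of 19 maturation genes were higher with Cpg than with Grd. This stands beside 0.446% of all genes, and 0 of all genes were called lower. The medians of these lists were 0.39, 0.26 and 0.34, beside -0.02 for all genes.

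**Figure D5:**
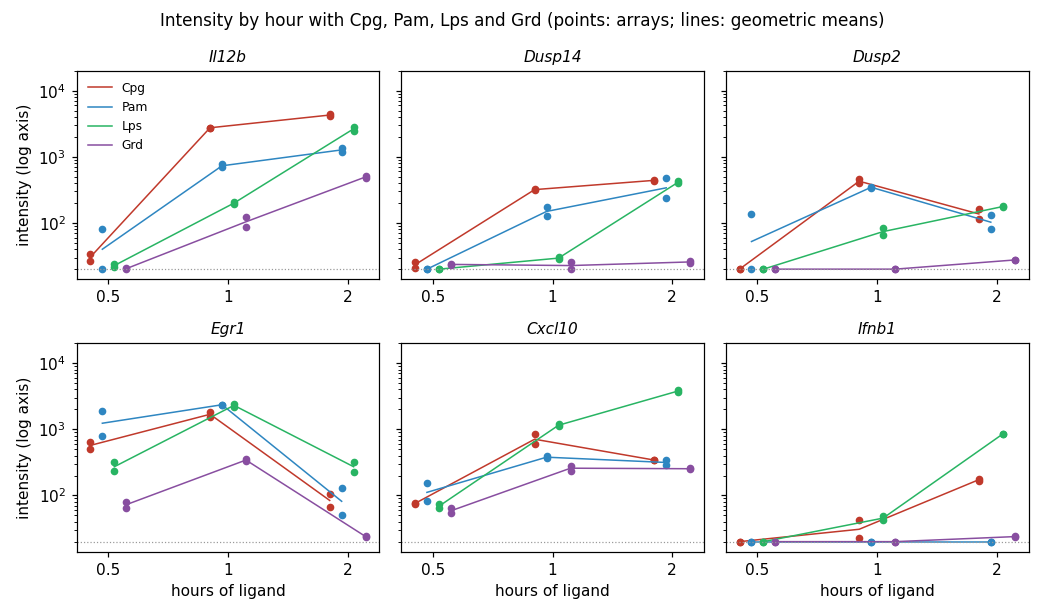
Intensity (log axis) of 6 genes at 0.5, 1 and 2 h of Cpg, Pam, Lps and Grd. Points are single arrays, lines join geometric means and the dotted line is the floor of 20; Il12b is highest with Cpg at 1 and 2 h, and Cxcl10 and Ifnb1 are highest with Lps at 2 h.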

How the data were processed

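Affymetrix arrays of 96 samples on 1 plate were deposited by the authors as 1 table of linear intensities made with RMA, per the submitters' processing notes (version not given in the sources used here). It holds 18858 probe sets with a floor of 20. Array medians ran from 48.75 to 59.5, and 33.1% to 34.6% of values lay at the floor. The number of arrays limits the precision. Gene names came from the platform annotation: 15044 probe sets had 1 symbol, 257 several and 3557 none, and 15024 were matched by Entrez ID to a current symbol.

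After 4409 probe sets at the floor on every array were left out, the probe set with the highest mean stood for each gene, giving 10543 items (2802 of them probe sets with no single symbol, which the counts include, and 7741 named genes). Of 19 other measured probe sets of named genes called in the window, 14 were called the same way and 0 the opposite way. Values were transformed as log2(value + 1), which understates the change of dim genes, and fitted with limma 3.58.1 in R 4.3.3 (Python 3.11.15 for the rest): 1 mean per ligand and hour and 1 for the 8 Control arrays, with empirical Bayes variances. The median SD between arrays of a group was 0.12.

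Genes, lists and markers were chosen with earlier results of these data known. Named genes were the largest rises and falls of each comparison (12 and 10 in the window, 6 and 4 per hour, 8 each way between 2 and 0.5 h, and 5 each way against other ligands and between the 1 h arrays), up to 4 members per list, and a panel. Replicate numbers did not pair the samples: deviations of equally numbered Cpg arrays correlated at 0.0068, 0.12 and -0.0060.

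Alternatives covered the pseudocount, centring, quantile normalization, probe set filters, array weights, the samples fitted, the choice of Control arrays, plate columns, a replicate block and leaving out arrays.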

Additional observations from a re-analysis of the deposited data

Results flagged for a closer look

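Fos and Dusp6 were called higher at 0.5 h of Cpg and lower at 2 h, each against the same 8 Control arrays. The difference between these hours was tested directly. Fos differed by -3.03 ± 0.25 in log2 units between 2 h and 0.5 h (limma adjusted p = 7e-15), and the 2 arrays of each hour lay on opposite sides of all 8 Control arrays. Dusp6 differed by -2.32 ± 0.31 (limma adjusted p = 2.9e-08), with both 2 h arrays at the floor of 20 and the 0.5 h arrays inside the Control range. Against the Control arrays of 0, 1 and 2 h the call for Dusp6 at 0.5 h was lost, at a difference of 0.65.

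Among 68 named genes, 4 had a single Control array far from the other 7. Among replicates chance gives about 1 in 20 groups, so 4 of 68 is near that rate. The Control arrays differ in hour, so the rate is a rough guide. Il6 had 62.4 on the Control array of 2 h, against 20 to 33.3 on the others. Cd83 had 1599.9 at 24 h, against 1138 to 1292. Dusp14 had 24.4 at 6 h, against 20 to 21.4, and Plat 24.3 at 6 h, against 20 on the others, so that these differences lie within a few units of the floor.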

How the results depend on the processing

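Counts are given as higher and lower with Cpg. A pseudocount of 16 gave 18 lower in the window, 2 lower at 0.5 h, 18 at 1 h, 197 at 2 h and 103 at 2 h against 0.5 h, and 1 higher against Pam and 2 against Lps. Quantile normalization gave 127 lower at 2 h against 0.5 h. Testing all probe sets gave 17 lower at 0.5 h, 8 higher against Pam and 10 against Lps, and array weights 2 lower at 0.5 h. Fitting the compared groups alone gave 11 higher and 0 lower at 0.5 h, 3 higher against Pam and 1 lower against Lps. By adjusted p alone, without the 2-fold threshold, there were 1527 and 3398 in the window, 638 and 723 at 0.5 h, 1094 and 2388 at 1 h, 1644 and 3552 at 2 h, 1114 and 2363 at 2 h against 0.5 h, 594 and 364 against Pam, 584 and 447 against Lps, and 962 and 1717 against Grd.

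No Control array was taken at 0.5 h, so same-hour values were had for 1 and 2 h alone. The Control arrays of 0, 1 and 2 h gave 16 lower in the window and 26 and 0 at 0.5 h, and the same counts without the first Cpg 1 h array as well (added after the data were seen). A linear Control trend gave 19 lower in the window and 28 and 0 at 0.5 h. Leaving out the Control arrays of 6, 12 and 24 h (also added) gave 20 lower in the window and 38 and 0 at 0.5 h. Plate column as a block gave 28 and 0 at 0.5 h and 582 lower at 2 h, and same-column Control arrays 30 and 0 and again 582. Both settings set Cpg against the Control arrays of its own column, so they are not separate checks. Same-hour Control arrays gave 79 lower at 1 h and 195 at 2 h. A window without the 0.5 h arrays held 302 and 100 genes, with 14 higher against Pam, 19 and 13 against Lps and 93 and 5 against Grd. Without the 1 h arrays, 59 were lower in the window, 2 and 10 differed from Lps and 28 were higher than with Grd. Without the 2 h arrays, 12 were lower in the window, 1 lower than with Pam, and 24 and 0 differed from Lps. The cause of these changes was not tested.

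Leaving out 1 array at a time gave 188 to 205 higher and 22 to 43 lower in the window, 43 to 80 and 5 to 15 at 0.5 h, 233 to 269 and 38 to 76 at 1 h, 372 to 399 and 310 to 403 at 2 h, 313 to 335 and 173 to 249 at 2 h against 0.5 h, 3 to 8 and 0 to 1 against Pam, 4 to 10 and 1 to 5 against Lps, and 45 to 49 and 0 to 1 against Grd. Counts moved by over 1.5 times at 0.5 h (5 lower without the first Cpg 0.5 h array or the Control array of 6, 12 or 24 h, 6 without the second Cpg 0.5 h array and 7 without the Control array of 8 h), at 1 h (76 lower without the first Cpg 1 h array), against Lps (1 lower without the first Cpg 1 h array, 10 higher and 5 lower without the second), against Pam (3 higher without the second Pam 0.5 h or 2 h array, 8 without the first Pam 2 h array, and 1 lower without the second Pam 2 h or Cpg 1 h array) and against Grd (1 lower without the second Cpg 1 h array). With the replicate block, 197 and 31 genes were called in the window, 60 and 9 at 0.5 h and 390 and 337 at 2 h. Among named genes the block ended 1 call, that of Tsc22d3 at 0.5 h (a difference of -0.99, adjusted p = 0.0015). Of 3965 values of named genes under alternatives, 3803 kept direction and call, 123 lost and 39 gained a call, and 0 turned direction with a call. Dim genes near the floor of 20 have only a bound on one side.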
